A study of Mus musculus with 17 samples.

Results

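The nuclear genes of oxidative phosphorylation were followed across RNA-seq libraries of mouse frontal cortex. The set held every protein-coding gene whose GENCODE M21 symbol begins with Nduf plus the letter a, b, c, s or v and a digit, is Sdha, Sdhb, Sdhc or Sdhd, or begins with Uqcr, Atp5, or Cox plus a digit from 4 to 8. This rule found 84 genes among the 46073 genes of the files, and used no measured value. Of the 84, 37 are named for complex I, 4 for complex II, 8 for complex III, 18 for complex IV and 17 for complex V. The 10 processed pseudogenes with matching symbols were left out, and 83 of the 84 genes passed the filter on low values. The gene that did not pass was Cox8c, an isoform known from testis, which was listed at 0 in every library except Ct replicate 6, where it stood at 0.114 FPKM.

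All mice were males of the FVB/N strain, and no age was given. The dTgDox group (n = 3) had the genotype dTg-211 and 4 days of doxycycline. The dTg group had the same genotype without doxycycline (7 libraries by label, of which replicates 2 to 7 entered the comparisons, n = 6). The Ct group (n = 6) had the genotype CamK, also without doxycycline, and the labels do not say what else the CamK mice carried. Mature miR-211 was not analysed here, since poly(A) libraries do not measure it. CamK driver lines act mainly in excitatory neurons of the forebrain, a limit of the model for any other cell type in the tissue. No Ct mice received doxycycline among these samples, so an effect of the drug and an effect through the miR-211 transgene cannot be told apart. The labels do not say whether replicates were separate animals, and p-values then measure only the spread between these libraries. The file headers give dTg replicates 5, 6 and 7 the same number, 616, with different suffixes, so they may share a source, and dTgDox libraries are numbered 2 to 4, apart from the 103 to 638 of Ct and dTg. The only NTg sample, which entered no comparison, is numbered 1. Whether the numbering of the dTgDox libraries marks a batch is not stated, and it cannot be told apart from doxycycline.

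Oxidative phosphorylation moves electrons from NADH and succinate through complexes I to IV to oxygen, and complexes I, III and IV pump protons as they do so. Complex V, the ATP synthase, lets the protons back and makes ATP. Most subunits are encoded in the nucleus and imported, a few core subunits of complexes I, III, IV and V are encoded in mitochondrial DNA, and neurons depend on the pathway for ion pumping and synaptic transmission. NRF1 and GABP are transcription factors known for sites in the promoters of many nuclear subunit genes.

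Because those sites are the best known shared sequence feature of the genes, 4 promoters are shown, each from 250 bases before to 50 bases after the annotated start, 5′ to 3′ on the gene's strand, from RefSeq on GRCm38.p6. Capitals mark the NRF1 core GCGCATGC and the GABP core ACTTCCGG on either strand. In Cox6a1 and Uqcrc1 the NRF1 core and its reverse complement overlap, which gives a run of 10 capitals. Cox6a1 (chr5:115348909-115349208, minus strand, NRF1 core), Cox8a (chr19:7217567-7217866, minus strand, GABP core) and Uqcr11 (chr10:80406772-80407071, minus strand, both) were higher in dTgDox in the results that follow. Uqcrc1 (chr9:108936398-108936697, plus strand, NRF1 core) is shown as a gene with a core that was not.
Cox6a1: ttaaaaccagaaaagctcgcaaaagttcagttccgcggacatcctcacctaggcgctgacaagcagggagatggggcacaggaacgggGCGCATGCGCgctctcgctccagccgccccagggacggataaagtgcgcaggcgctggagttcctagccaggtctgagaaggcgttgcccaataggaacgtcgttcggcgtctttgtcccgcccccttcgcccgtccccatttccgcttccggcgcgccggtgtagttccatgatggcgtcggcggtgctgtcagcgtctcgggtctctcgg
Cox8a: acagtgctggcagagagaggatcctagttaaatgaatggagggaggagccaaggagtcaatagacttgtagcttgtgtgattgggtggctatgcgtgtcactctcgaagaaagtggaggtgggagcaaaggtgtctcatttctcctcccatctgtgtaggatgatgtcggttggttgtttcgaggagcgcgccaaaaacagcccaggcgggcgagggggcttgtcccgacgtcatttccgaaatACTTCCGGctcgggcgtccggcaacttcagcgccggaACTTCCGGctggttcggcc
Uqcr11: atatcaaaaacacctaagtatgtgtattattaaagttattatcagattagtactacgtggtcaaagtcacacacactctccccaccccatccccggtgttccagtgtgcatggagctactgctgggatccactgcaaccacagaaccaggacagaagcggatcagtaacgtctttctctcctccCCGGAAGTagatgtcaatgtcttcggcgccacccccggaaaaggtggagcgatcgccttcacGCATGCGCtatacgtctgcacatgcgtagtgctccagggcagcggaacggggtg
Uqcrc1: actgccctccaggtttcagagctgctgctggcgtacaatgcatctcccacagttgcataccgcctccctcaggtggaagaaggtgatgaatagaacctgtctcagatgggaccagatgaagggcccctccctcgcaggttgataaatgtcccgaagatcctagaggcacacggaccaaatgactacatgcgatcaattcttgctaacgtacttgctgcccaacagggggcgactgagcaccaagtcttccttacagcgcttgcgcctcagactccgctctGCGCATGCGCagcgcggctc

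Of the 84 genes, 66 had a promoter in the RefSeq table. The NRF1 core stood in 10 of the 66 (15.2%), against 689 of 17492 protein-coding genes with a promoter of the same length (3.94%). The GABP core stood in 5 of the 66 (7.58%), against 995 of the 17492 (5.69%). Among the 19 genes with a promoter that were higher in dTgDox than in dTg, 5 held the NRF1 core and 2 the GABP core, against 5 and 3 of the 47 that were not higher. These are letter matches and not measured binding.

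The files held FPKM (fragments divided by transcript length in kilobases and by library size), which is a level per length, and read depth could not be recovered from them. Each library had 15762 to 16085 genes at 1 FPKM or more. The file of dTg replicate 1 was identical to that of the only NTg sample, though their headers carry the numbers 407 and 1. The mean cerebellar marker level of dTg replicate 1 (log2 FPKM + 0.5, 15 genes) was 7.74, against 2.01 to 3.04 in the other libraries, so it is given apart. The dTgDox libraries differed from the others in tissue markers too. Hippocampal markers, 15 of 19 tested of which rose, averaged 4.04 to 4.18 in dTgDox, 2.15 to 2.40 in dTg and 2.21 to 2.47 in Ct on the same scale, with summed FPKM of 574 to 598 in dTgDox, 283 to 379.9 in dTg and 276 to 401 in Ct, with none of the 20 listed at 0 in these groups. Astrocyte markers averaged 6.69 to 6.90 in dTgDox, 6.23 to 6.63 in dTg and 6.15 to 6.44 in Ct. Of these 8 astrocyte markers Gfap differed most (2.55 against dTg), the median difference was 0.19, and Aldh1l1 fell (-0.51, adjusted p 0.028). Oligodendrocyte markers averaged 7.03 to 7.70 in dTgDox, 5.80 to 7.18 in dTg and 5.93 to 6.996 in Ct. Their dTgDox and dTg ranges overlapped, and of the 8 markers 0 were called against dTg and 1, Opalin, against Ct. Markers of cortical excitatory neurons averaged 4.83 to 5.20 in dTgDox, 5.36 to 5.71 in dTg and 5.28 to 5.85 in Ct. Striatal and olfactory bulb markers varied among the dTg and Ct libraries, at 2.48 to 4.96 and 0.81 to 3.67 in dTg and 2.66 to 5.84 and 0.88 to 4.43 in Ct, against 2.47 to 2.55 and 0.87 to 1.04 in dTgDox. The part of these differences in the subunit results was not tested. In bulk tissue, fewer cells of a type and less RNA per cell cannot be told apart.

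Many subunit genes stood slightly higher in dTgDox than in either untreated group. A gene was called at an adjusted p below 0.05 in a limma fit of log2(FPKM + 0.5) over 19064 genes. The dTgDox libraries were set against dTg to ask what changed after 4 days of doxycycline, and against Ct to ask how they stood beside mice of the genotype CamK. Against dTg, 21 of the 83 tested subunit genes (25.3%) rose and 2 fell, where 9.65% of all genes tested rose and 9.22% fell. Their median difference was 0.14 on the log2 scale, against -0.01 over all genes tested, and 71 of the 83 lay above 0. Against Ct, 22 of the 83 (26.5%) rose and 3 fell, where 9.86% of all genes rose and 9.85% fell, and the median was 0.14 again with 64 above 0. Both comparisons use the same 3 dTgDox libraries and are not independent.

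The size of these differences was small beside the number of genes involved. All the genes that rose against dTg did so by 0.20 to 0.37 on the log2 scale, except Cox6b2 at 0.78. All 3 dTgDox libraries stood above all 12 dTg and Ct libraries for 19 of the 83 genes (22.9%), against 8.06% of all genes tested. They stood below all 12 for 2 genes (2.41%), Cox4i2 and Cox6a2, against 8.06% of all genes tested. Together the subunit genes took 2.61 to 2.74% of all FPKM in dTgDox, 2.28 to 2.59% in dTg and 2.37 to 2.66% in Ct.

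**Figure D1:**
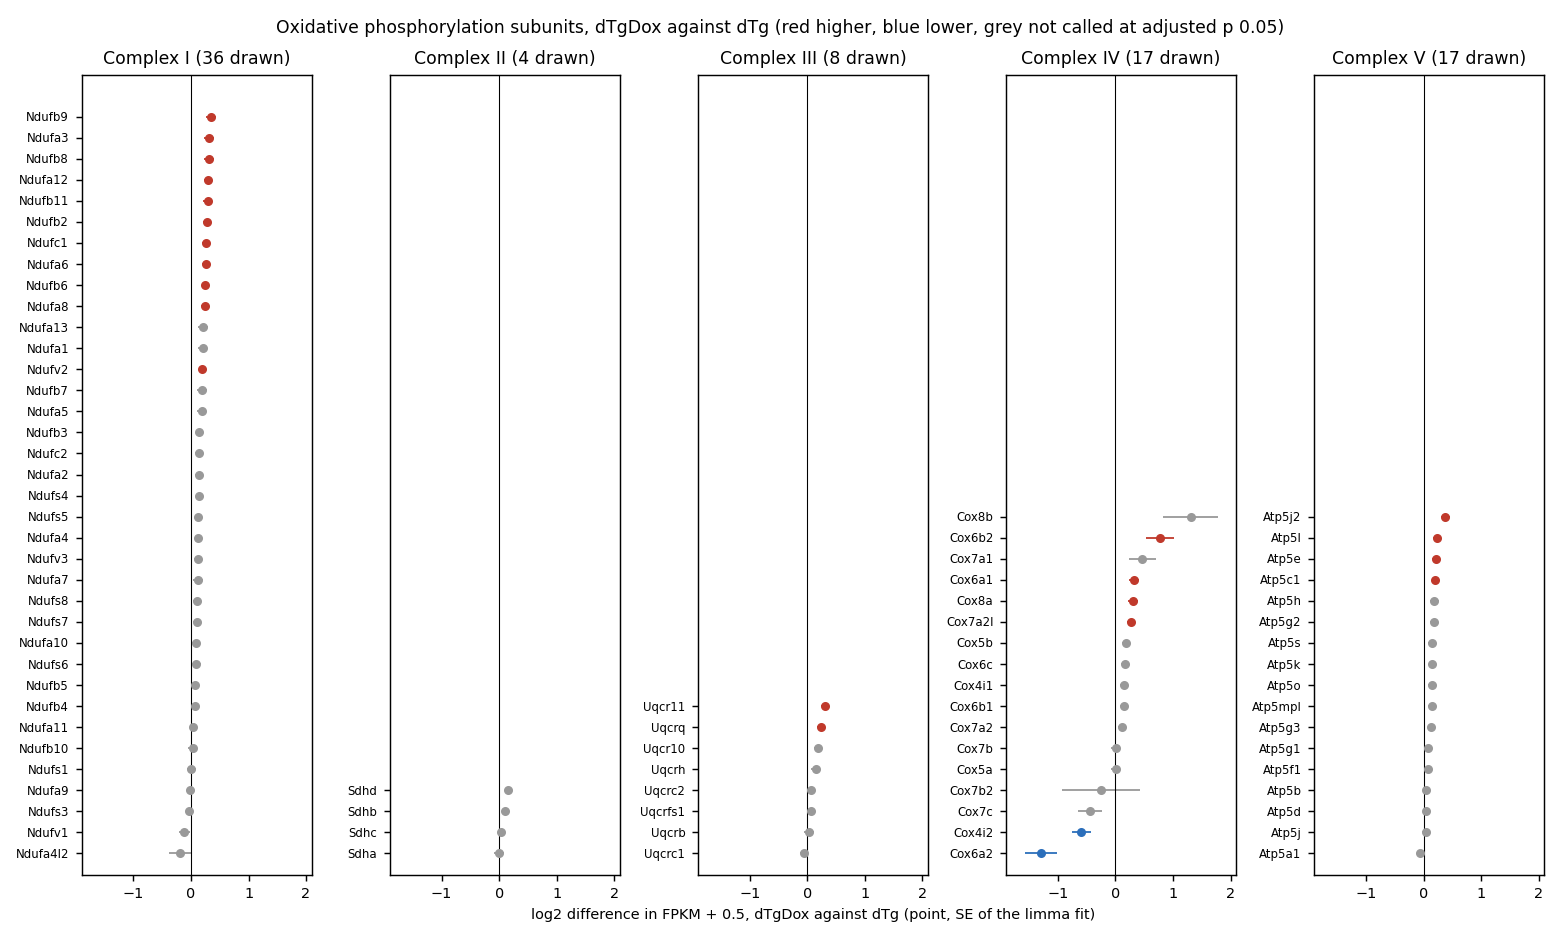
Log2 difference in FPKM + 0.5 of dTgDox against dTg for 82 of the 83 tested genes, in a panel per complex, with the SE of the limma fit as a bar. Red points rose and blue points fell at an adjusted p below 0.05, and grey points did not pass; complex I holds 11 red points and complex II none, and both blue points lie in complex IV.

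The count of calls depended on which dTgDox libraries were present. With dTgDox replicate 1 left out, 5 subunit genes rose against dTg (6.02% of the 83, against 5.37% of all genes), with replicate 2 left out 7 (8.43%, against 6.77%), and with replicate 3 left out 13 (15.7%, against 5.70%). The median difference was 0.13, 0.12 and 0.16 in those fits. Against Ct, 8 genes rose without replicate 1 (9.64%, against 5.90% of all genes), 6 without replicate 2 (7.23%, against 7.01%) and 13 without replicate 3 (15.7%, against 6.04%). Without replicate 2 the shares of the subunit genes were thus near those of all genes, as they were against dTg without replicate 1. Atp5j2, Cox6a2, Ndufb6, Ndufb9 and Uqcr11 kept their call against dTg in all 3 of these fits, and Atp5j2, Cox6a2, Ndufb2 and Ndufb9 kept theirs against Ct. With dTg replicate 1 included among dTg, 12 genes rose against dTg (14.5%, against 4.73% of all genes) and 9 against Ct (10.8%, against 4.45%). With dTg replicates 5 to 7 averaged and counted as 1 library, 14 genes rose and 3 fell against dTg (16.9% higher, against 7.51% of all genes), 26 rose and 2 fell against Ct (31.3% higher, against 10.5%), and Atp5e, Atp5l, Cox6b2, Cox8a, Ndufa6, Ndufa8 and Ndufb8 lost their call against dTg.

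The median over the subunit genes of each gene's deviation from its own mean over the 15 libraries was 0.12, 0.13 and 0.083 in the 3 dTgDox libraries, -0.13 to 0.043 in dTg and -0.093 to 0.092 in Ct. All dTgDox libraries lay above all dTg libraries. Ct replicate 2, at 0.092, lay above dTgDox replicate 3, and the other Ct libraries reached 0.020 at most. Over all genes tested the same median stayed between -0.020 and 0.012 in the 15 libraries. By complex, the dTgDox libraries averaged 0.12 ± 0.029 for complex I, 0.030 ± 0.060 for complex II, 0.10 ± 0.026 for complex III, 0.13 ± 0.029 for complex IV and 0.11 ± 0.026 for complex V (SD, n = 3).

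**Figure D2:**
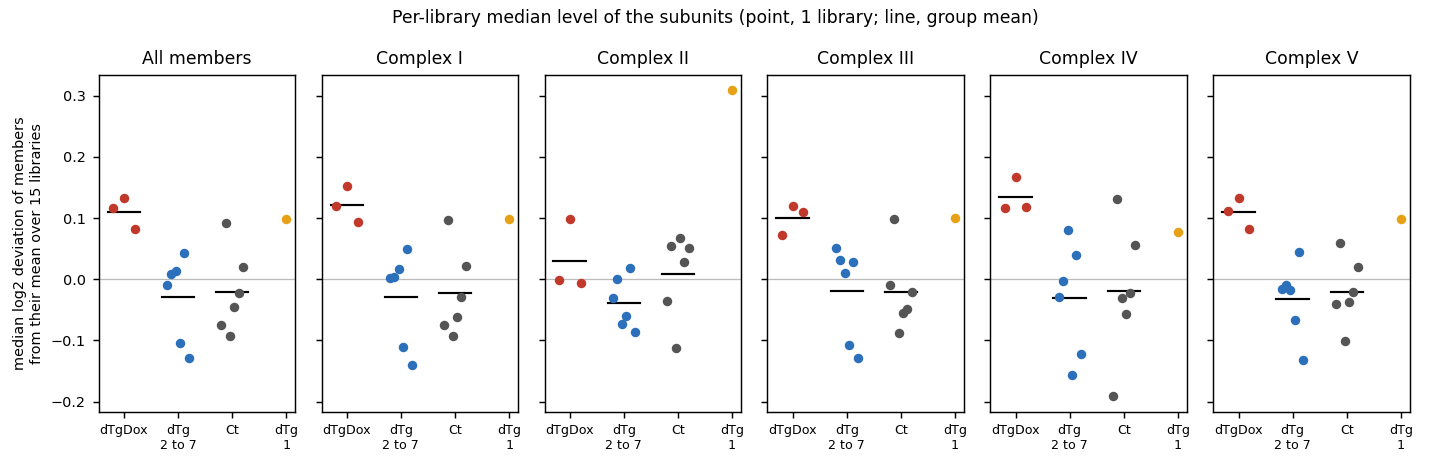
Median log2 deviation of the subunit genes from their mean over 15 libraries, for all genes and per complex, 1 point per library with dTgDox, dTg replicates 2 to 7, Ct and dTg replicate 1 from left to right, and the group mean as a line. The dTgDox points for all genes lie at 0.083 to 0.13, 1 Ct point reaches 0.092, and for complex II the dTgDox points overlap both other groups.

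Complex I takes electrons from NADH. Its nuclear subunits comprise a catalytic core that carries flavin and iron-sulphur clusters, and many accessory subunits around it. Against dTg, 10 of the 28 accessory subunits rose and 0 fell (median 0.17), and 1 of the 7 core subunits, Ndufv2, rose (median 0.01). Against Ct the counts were 11 of 28 (median 0.17) and 0 of 7 (median -0.02). The difference between core and accessory subunits was not tested. The 2 classes also differ in length, with a median exon-union length of 1234 bases for accessory and 2178 for core subunits. Shorter genes of other kinds had higher differences too, as given below, and the part of length in this contrast was not tested.

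Ndufb9 (ENSMUSG00000022354, chromosome 15, 58933756 to 58939488, GENCODE M21), an accessory subunit of the membrane arm, had 313, 334 and 324 FPKM in dTgDox, 226 to 291 (median 249.6) in dTg and 226 to 286 (median 249) in Ct. All 3 dTgDox libraries stood above all 12 others. The difference was 0.35 (SE 0.08, 1.27-fold, adjusted p 0.00742) against dTg and 0.36 (SE 0.08, adjusted p 0.00584) against Ct, and both calls held under 27 of 27 alternative fits. Of its exon length, 19.5% is shared on the same strand with the annotated gene Gm49356, so reads there cannot be assigned to 1 of the 2.

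Ndufa3, a small accessory subunit and the one with the highest mean level among accessory subunits, had 379, 396 and 353 FPKM in dTgDox, 262 to 340.3 (median 305) in dTg and 278 to 336 (median 311) in Ct. All 3 dTgDox libraries lay above all 12 others. It rose by 0.31 (SE 0.085, adjusted p 0.019) against dTg and by 0.27 (SE 0.085, adjusted p 0.0365) against Ct, calls that held under 24 and 16 of the 27 alternatives.

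Ndufb8, another membrane-arm subunit, had 262, 263 and 232 FPKM in dTgDox, 179 to 219 (median 209) in dTg and 189 to 256 (median 197) in Ct. Here dTgDox replicate 3 lay below the highest Ct library, replicate 2. The difference was 0.31 (SE 0.093, adjusted p 0.03) against dTg and 0.30 (SE 0.093, adjusted p 0.0312) against Ct, and the calls held under 21 and 19 of the alternatives. Ndufb6, also of the membrane arm, had 133, 134 and 136 FPKM in dTgDox, 109.9 to 122 (median 112) in dTg and 108 to 125 (median 120.2) in Ct. Its 3 dTgDox values were close together and above all others, and the difference of 0.24 against dTg (SE 0.053, adjusted p 0.00469) held under 27 of 27 alternatives. It was 0.19 against Ct (SE 0.053, adjusted p 0.0189), a call that held under 21. Ndufb6 shares 39.0% of its exon length with Smim27 on the opposite strand, and strand use in counting is not given in the sources used here.

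The other accessory subunits that rose against dTg were Ndufa12, Ndufb11, Ndufb2, Ndufc1, Ndufa6 and Ndufa8, by 0.24 to 0.29. Ndufa13 had 83.5, 85.2 and 82.0 FPKM in dTgDox, 62.7 to 78.6 (median 74.0) in dTg and 61.9 to 82.1 (median 70.1) in Ct, and 1 dTgDox library lay within the range of Ct. It rose against Ct (0.25, adjusted p 0.043), a call that held under 11 of the 27 alternatives, and its difference of 0.21 against dTg did not pass (adjusted p 0.087).

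Ndufv2, a core iron-sulphur subunit of the NADH-oxidising module, had 123, 129 and 129 FPKM in dTgDox, 104 to 120.2 (median 108) in dTg and 111 to 122 (median 115) in Ct. Its dTgDox libraries lay just above all others. The rise of 0.20 against dTg (SE 0.057, adjusted p 0.0253) held under 21 of the alternatives and in none of the fits without 1 dTgDox library, and against Ct the difference was 0.13 (adjusted p 0.119). Its partner Ndufv1, which binds the flavin, had 98.5, 116.8 and 84.8 FPKM in dTgDox, 93.9 to 125 (median 109.6) in dTg and 102 to 116 (median 111) in Ct, and these ranges overlapped. The core subunits Ndufs1, Ndufs3, Ndufs7 and Ndufs8 had differences of -0.03 to 0.11 against dTg and of -0.09 to 0.09 against Ct, and none passed.

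Ndufa4 is named for complex I but is known as a subunit of complex IV, and it had the highest mean level of the genes named for complex I (518 FPKM over the 15 libraries). It had 565, 550.2 and 555 FPKM in dTgDox, 458 to 554 (median 518) in dTg and 479 to 547 (median 499.6) in Ct, and did not pass (difference 0.12 against dTg, adjusted p 0.18). Its paralog Ndufa4l2, known for induction in hypoxia, was low, with 1.99, 1.75 and 1.45 FPKM in dTgDox, 1.53 to 2.82 (median 1.97) in dTg and 1.11 to 2.65 (median 1.95) in Ct, and the ranges overlapped.

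Complex II, succinate dehydrogenase, links the tricarboxylic acid cycle to the chain and has no subunit encoded in mitochondrial DNA. None of its 4 genes passed in any comparison, with a median difference of 0.07 against dTg and 0.02 against Ct. Sdha, the flavoprotein, had 249, 257 and 249 FPKM in dTgDox, 228 to 294 (median 254) in dTg and 229 to 299 (median 265) in Ct. Sdhc, a membrane anchor, had 122, 135 and 122 FPKM in dTgDox, 119.8 to 130.1 (median 122) in dTg and 116 to 137 (median 127) in Ct, and the ranges of both genes overlapped. Sdhd, the other anchor, had 70.5, 67.3 and 66.8 FPKM in dTgDox, 57.9 to 64.6 (median 62.7) in dTg and 58.0 to 65.7 (median 63.9) in Ct, so that its dTgDox libraries lay just above all others, with a difference of 0.15 (SE 0.055, adjusted p 0.0744) against dTg. The iron-sulphur subunit Sdhb differed by 0.11 against dTg (adjusted p 0.204).

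Complex III passes electrons from ubiquinol to cytochrome c. Of its small accessory subunits, 2 of 5 rose against dTg (median 0.18) and 3 of 5 against Ct (median 0.23). Of the core and iron-sulphur subunits 0 of 3 passed in either comparison (medians 0.06 and 0.03). Here too the accessory genes were shorter, with a median exon-union length of 876 bases against 2552, and the part of length was not tested. Uqcr11 (ENSMUSG00000020163, chromosome 10, 80402997 to 80406830), whose promoter held both cores, had 359, 337 and 334 FPKM in dTgDox, 263 to 297 (median 282) in dTg and 264 to 322 (median 273) in Ct. All 3 dTgDox libraries stood above the others. It rose by 0.30 (SE 0.068, adjusted p 0.00697) against dTg and by 0.27 (SE 0.068, adjusted p 0.0121) against Ct, calls that held under 26 and 25 of the 27 alternatives. Uqcrq, the ubiquinone-binding accessory subunit, had 319, 319.7 and 309 FPKM in dTgDox, 243 to 294 (median 267) in dTg and 257 to 299 (median 267) in Ct and rose by 0.24 (adjusted p 0.0148) and 0.23 (adjusted p 0.0171), held under 24 and 25 alternatives. Uqcr10 had 228, 235 and 239 FPKM in dTgDox, 189 to 229.7 (median 207) in dTg and 179 to 220.5 (median 195) in Ct, and rose against Ct (0.25, adjusted p 0.0228, held under 21) while the difference of 0.18 against dTg did not pass (adjusted p 0.0873).

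The remaining complex III genes did not pass. Uqcrh, the hinge subunit and the most abundant gene of the complex, had 329.6, 329.8 and 327 FPKM in dTgDox, 257 to 327 (median 306) in dTg and 255 to 328 (median 296) in Ct, with dTgDox replicate 3 within the range of Ct. Uqcrc1, the core subunit whose promoter was shown, had 144, 176 and 151 FPKM in dTgDox, 156 to 176 (median 162) in dTg and 157 to 180.5 (median 165) in Ct. Its dTgDox libraries were spread wider than both other groups, and 2 of them lay below all 12 others. The Rieske protein Uqcrfs1 differed by 0.06 against dTg (adjusted p 0.48).

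Complex IV, cytochrome c oxidase, reduces oxygen. Several of its nuclear subunits exist as a widely expressed form and a form restricted to muscle, lung, testis or other tissues. Among the 10 widely expressed subunits, Cox8a and Cox6a1 rose against dTg and against Ct, and Cox7c fell against Ct. The median over the 10 was 0.15 against dTg and 0.14 against Ct. The most abundant was Cox8a, which had 840.2, 832 and 822 FPKM in dTgDox, 625 to 755 (median 663) in dTg and 586 to 819 (median 649) in Ct, with dTgDox replicate 3 just above the highest Ct library. It rose by 0.31 (SE 0.087, adjusted p 0.0225) and 0.33 (adjusted p 0.0166), calls that held under 21 and 22 of the alternatives and in none of the fits without 1 dTgDox library.

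Cox6a1 (ENSMUSG00000041697, chromosome 5, 115345642 to 115348981) had 757, 759 and 706 FPKM in dTgDox, 533 to 656 (median 592) in dTg and 531 to 707 (median 588) in Ct. The lowest dTgDox library lay just below the highest Ct library, and all lay above dTg. It rose by 0.32 (SE 0.086, adjusted p 0.0164) and 0.31 (adjusted p 0.0193), held under 24 and 23 alternatives. Cox7a2l, an assembly factor of supercomplexes that is counted with complex IV by its symbol, had 137, 135 and 132 FPKM in dTgDox, 102 to 123 (median 113) in dTg and 102 to 123 (median 113) in Ct. It rose by 0.27 (adjusted p 0.0126) and 0.26 (adjusted p 0.0158), both held under 25, and its dTgDox libraries lay above all others.

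Cox4i1, the widely expressed form of subunit 4, had 639.7, 672 and 614 FPKM in dTgDox, 520.0 to 649.5 (median 575) in dTg and 556 to 652 (median 580.0) in Ct, and did not pass (0.15 against dTg, adjusted p 0.141). Cox5b, another structural subunit, had dTgDox libraries above all others without passing (0.18 against dTg, adjusted p 0.107), with 515, 524 and 504 FPKM in dTgDox, 397 to 489 (median 471) in dTg and 411 to 502 (median 455) in Ct. The difference of its partner Cox5a was 0.00 against dTg.

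Cox7c had 407, 425 and 429 FPKM in dTgDox, 317 to 707 (median 661) in dTg and 536 to 774 (median 661) in Ct. The dTgDox libraries lay below all Ct libraries and inside the range of dTg, where replicate 5 was the lowest. It fell relative to Ct, with a difference of -0.64 (SE 0.21, adjusted p 0.0417), a call that held under 14 of the 27 alternatives and in none of the fits without 1 dTgDox library, and its difference against dTg was -0.44 (adjusted p 0.154), which became -0.61 (adjusted p 0.00276) without dTg replicate 5 and -0.53 (adjusted p 0.0133) with dTg replicates 5 to 7 averaged. The processed pseudogene copies Gm12338 (186.5 to 269.8 FPKM in dTgDox, 177.5 to 409.9 in dTg and 240.2 to 403 in Ct) and Gm10012 (12.5 to 17.8 in dTgDox, 12.2 to 31.2 in dTg and 16.1 to 32.6 in Ct) had differences of -0.53 and -0.70 against Ct. Their transcripts match Cox7c at 97% identity or more over at least 75 bases, so short reads of the 3 may not be told apart and the value of Cox7c is uncertain.

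The tissue-restricted forms were low, at a mean of 0.92 to 8.14 FPKM among the 6 tested. Cox6a2 (ENSMUSG00000030785, chromosome 7, 128205435 to 128206387), the heart and skeletal muscle form of subunit 6a that is also known from parvalbumin interneurons, had 4.13, 4.04 and 2.20 FPKM in dTgDox, 6.23 to 13.4 (median 8.12) in dTg and 6.21 to 13.3 (median 9.13) in Ct. All 3 dTgDox libraries lay below all 12 others. The difference was -1.29 (SE 0.27, 0.409-fold, adjusted p 0.00455) against dTg and -1.32 (SE 0.27, 0.402-fold, adjusted p 0.00396) against Ct, held under 25 and 27 of 27 alternatives. Fold values are on the scale of FPKM + 0.5 and understate the change of low genes.

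The markers of GABA interneurons were looked at beside Cox6a2. Their mean log2 level was 4.76 to 5.19 in dTgDox, 5.36 to 5.58 in dTg and 5.32 to 5.55 in Ct. Summed FPKM was 515 to 708 in dTgDox, 739 to 897 in dTg and 808 to 977 in Ct. Of the 10, Cort, Npy and Vip fell against dTg and against Ct, and 0 rose. These 3 are 30% of the list, where 9.22% of all genes fell against dTg and 9.85% against Ct. Pvalb itself had 30.9, 53.5 and 29.2 FPKM in dTgDox, 31.0 to 66.3 in dTg and 23.7 to 55.9 in Ct, and did not pass (adjusted p 0.575 against dTg). The 7 muscle markers averaged 0.80 to 0.96 in dTgDox, 0.71 to 1.26 in dTg and 0.67 to 1.05 in Ct. The part of interneuron markers in the Cox6a2 result was not tested. Cox6a2 shares 10.3% of its exon length with Itgad on the opposite strand.

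Cox4i2 (chromosome 2, 152754173 to 152765037), the form of subunit 4 known from lung and from hypoxic cells, had 1.25, 1.48 and 1.12 FPKM in dTgDox, 1.70 to 2.93 (median 2.17) in dTg and 1.49 to 2.65 (median 1.97) in Ct. All dTgDox libraries lay just below all others. It fell relative to dTg, with a difference of -0.59 (SE 0.16, adjusted p 0.018, held under 24 of 27), and relative to Ct, with a difference of -0.48 (SE 0.16, adjusted p 0.0472, held under 10 of 27). In vessels this form is known from pericytes, for which no markers were listed. Endothelial markers averaged 3.31 to 3.46 in dTgDox, 3.19 to 3.89 in dTg and 3.32 to 3.72 in Ct, ranges that overlap. Their median difference was -0.23 against dTg and -0.12 against Ct, with 1 of 7 above 0 in each and none called. The part of vessel cells in the Cox4i2 result was not tested.

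Cox6b2 (chromosome 7, 4751792 to 4753094), the testis form of subunit 6b, had 6.37, 7.43 and 9.0 FPKM in dTgDox, 3.07 to 7.39 (median 3.54) in dTg and 2.69 to 5.52 (median 3.67) in Ct. The lowest dTgDox library lay within the range of dTg and above all Ct libraries. It rose by 0.78 (SE 0.25, adjusted p 0.0396) against dTg, a call that held under 15 of the 27 alternatives and in none of the fits without 1 dTgDox library, and by 0.85 (SE 0.25, adjusted p 0.0254) against Ct, held under 23.

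Cox8b, the muscle form of subunit 8, had 0.919, 1.42 and 4.79 FPKM in dTgDox, 0 to 1.47 (median 0.532) in dTg, where replicates 3 and 7 are listed at 0, and 0.181 to 1.15 (median 0.385) in Ct. Only dTgDox replicate 3 stood above all others. The difference of 1.31 against dTg did not pass (adjusted p 0.0755) and was 0.75 (adjusted p 0.364) without that library. Cox7a1, the muscle form of subunit 7a, also stood highest in dTgDox replicate 3, with 4.54, 4.13 and 8.11 FPKM in dTgDox, 2.55 to 5.57 (median 3.75) in dTg and 2.83 to 5.39 (median 3.94) in Ct (adjusted p 0.196 against dTg). In the same library the choroid plexus markers summed to 1978 FPKM, against 24.0 and 45.3 in the other dTgDox libraries, 1.42 to 127.6 in dTg and 1.47 to 91.8 in Ct, with Kcne2 listed at 0 in 1 Ct library. Their part in these values was not tested. Cox7b2, a testis form of subunit 7b, had 1.28, 0.0921 and 3.51 FPKM in dTgDox, 0.211 to 4.75 (median 1.13) in dTg and 1.21 to 3.23 (median 2.48) in Ct, without any separation.

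**Figure D3:**
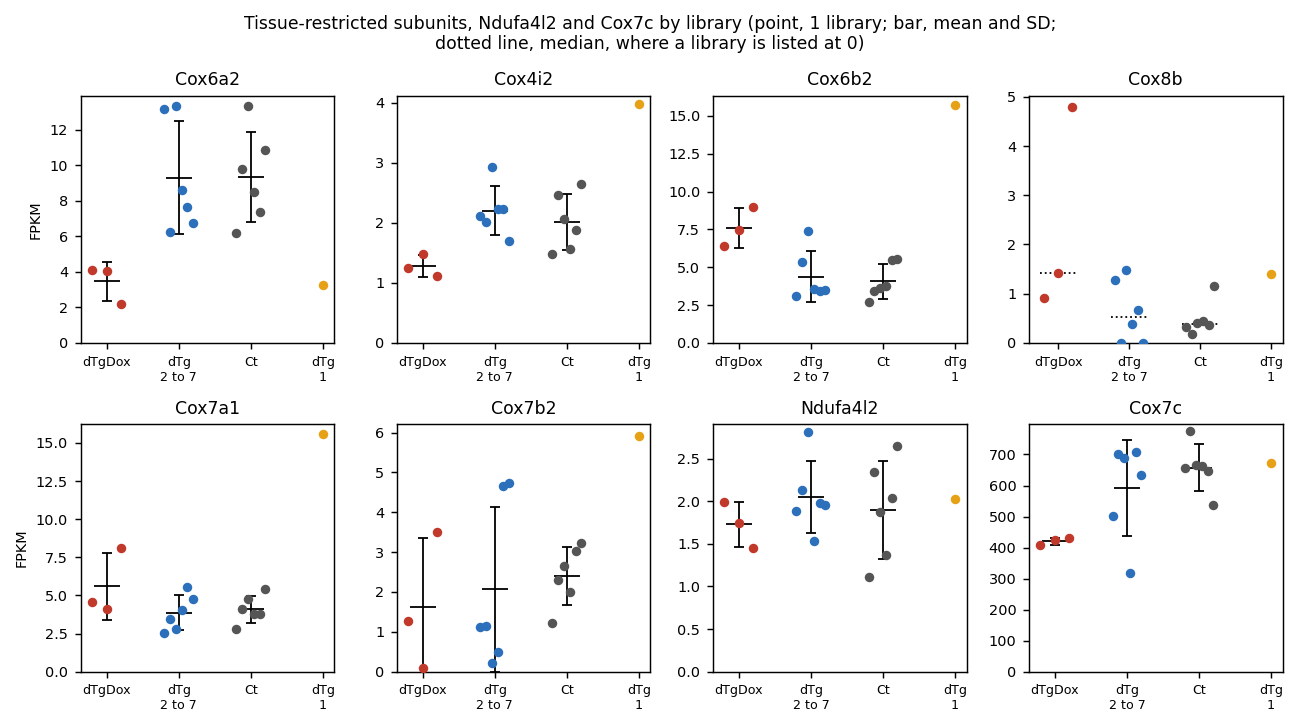
FPKM of 6 tissue-restricted complex IV forms, Ndufa4l2 and Cox7c, 1 point per library, with dTgDox, dTg replicates 2 to 7, Ct and dTg replicate 1 from left to right; bars are mean and SD, and dotted lines are medians where a library is listed at 0. All dTgDox points of Cox6a2 (2.20 to 4.13 FPKM) and Cox4i2 (1.12 to 1.48) lie below those of the other groups compared, and dTgDox replicate 3 stands alone for Cox8b at 4.79.

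Complex V consists of the F1 head with its central stalk, a peripheral stalk, a ring of c subunits and small subunits of the membrane part. Against dTg, 2 of 5 genes of the head and central stalk rose (median 0.05), 0 of 4 of the peripheral stalk (median 0.11), 0 of 3 of the c ring (median 0.13) and 2 of 4 small membrane subunits (median 0.19). Against Ct the counts were 2, 0, 0 and 2, with medians of 0.08, 0.09, 0.09 and 0.19. No gene of complex V fell in either comparison.

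Atp5j2 (ENSMUSG00000038690, chromosome 5, 145183698 to 145192062), the small membrane subunit f, had 207, 212 and 205 FPKM in dTgDox, 139.7 to 177 (median 163) in dTg and 152 to 184 (median 156) in Ct. The dTgDox libraries lay close together and above all others. It rose by 0.37 (SE 0.077, 1.30-fold, adjusted p 0.00344) against dTg and by 0.37 (SE 0.077, adjusted p 0.00382) against Ct. Both calls held under 27 of 27 alternatives, and no near-identical transcript of another gene was found for it. Atp5l, subunit g, had 263, 264 and 263 FPKM in dTgDox, 196 to 243 (median 224) in dTg and 200.3 to 254 (median 225) in Ct and rose against dTg (0.24, adjusted p 0.0372, held under 16 of 27), while the difference of 0.22 against Ct did not pass (adjusted p 0.0537). Transcripts of 17 other genes match it at 97% identity or more over at least 75 bases, so its value is uncertain.

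Atp5mpl, a small proteolipid of the membrane part, had 385, 394 and 372 FPKM in dTgDox, 324 to 362 (median 352) in dTg and 317 to 372 (median 343) in Ct. All dTgDox libraries lay above dTg, and the lowest lay level with the highest Ct library. It rose against Ct at the edge of the threshold (0.16, adjusted p 0.049996), a call that held under 6 of 27 alternatives.

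In the head, Atp5c1, the rotating gamma subunit, had 177, 177 and 180.3 FPKM in dTgDox, 146 to 169 (median 152) in dTg and 150.2 to 165 (median 159) in Ct. It rose by 0.20 (adjusted p 0.0199, held under 20) and 0.17 (adjusted p 0.0448, held under 10). Atp5e, the epsilon subunit of the central stalk, had 258, 281 and 249 FPKM in dTgDox, 214 to 248 (median 222) in dTg and 189.7 to 234 (median 222) in Ct, and rose by 0.21 (adjusted p 0.0467, held under 9) and 0.27 (adjusted p 0.0135, held under 26). For both genes the dTgDox libraries lay above all others.

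The catalytic beta subunit Atp5b was the most abundant of the 84 genes, with 1047, 1041 and 953 FPKM in dTgDox, 935 to 1043 (median 969) in dTg and 918 to 1029.6 (median 978) in Ct, ranges that overlapped (0.05 against dTg, adjusted p 0.568). The alpha subunit Atp5a1 had 382, 415 and 381 FPKM in dTgDox, 386 to 427 (median 411) in dTg and 419 to 436 (median 429) in Ct. Its dTgDox libraries lay below all Ct libraries, and the difference of -0.12 against Ct did not pass (adjusted p 0.0615). Atp5j, coupling factor 6 of the peripheral stalk, had 441, 447 and 389 FPKM in dTgDox, 371 to 464 (median 416) in dTg and 408 to 449 (median 435) in Ct, without separation.

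The 3 c-ring genes encode the same mature protein with different import sequences. Atp5g1 had 237, 251 and 226 FPKM in dTgDox, 212 to 234 (median 223) in dTg and 210.2 to 235 (median 223) in Ct. Atp5g2 had 129, 126 and 125 FPKM in dTgDox, 99.2 to 119.8 (median 116) in dTg and 105 to 119 (median 111) in Ct, with the dTgDox libraries above all others but no call (0.19 against dTg, adjusted p 0.0641). Atp5g3 had 350.4, 363 and 341 FPKM in dTgDox, 292 to 344 (median 323) in dTg and 316 to 344 (median 332) in Ct. In each of these libraries Atp5g3 was the highest of the 3 and Atp5g2 the lowest, as FPKM per length. Atpif1, the inhibitor of the synthase, which lies outside the symbol rule, had 251, 232 and 221 FPKM in dTgDox, 213 to 250.4 in dTg and 203 to 268 in Ct (difference 0.01 against dTg).

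Across the 84 genes, 36 had a transcript stretch of at least 75 bases matching another gene's transcript at 97% identity or more, overlapping genes included, and 11 of the 21 genes that rose against dTg were among them. How the submitters assigned such reads is not given in the sources used here.

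The subunit genes are short, with a median exon-union length of 1550 bases, against 3535 over all genes tested, and the other protein-coding genes had higher median differences in the shorter length classes too. Among genes of up to 1000 bases, 6 of 22 subunit genes rose against dTg (median 0.15), against 17.0% of the other protein-coding genes (median 0.13). Between 1000 and 2000 bases it was 10 of 32 (median 0.15), against 14.9% (median 0.08), and between 2000 and 4000 bases 3 of 19 (median 0.09), against 11.5% (median 0.02). Above 4000 bases it was 2 of 10 (median 0.07), against 8.61% (median -0.04). Against Ct, 7 of 22 rose in the shortest class (median 0.155), against 17.5% (median 0.153). From 1000 to 2000 bases it was 12 of 32 (median 0.16), against 14.7% (median 0.08). In the 2 longer classes 2 of 19 and 1 of 10 rose (medians 0.04 and 0.07), against 11.8% and 8.42% (medians 0.01 and -0.05). Across the 83 genes, the difference and the length had a Spearman rho of -0.24 and a Pearson r of -0.10 with log2 length, as a description of genes that share libraries.

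With a smooth trend on length removed from each library, the median of the subunit genes was 0.09 against dTg and 0.08 against Ct. In that fit 17 genes rose against dTg (20.5%, against 9.43% of all genes) and 15 against Ct (18.1%, against 9.69%). Abundance was looked at in the same way. At a mean of 50 FPKM or more, 20 of 73 subunit genes rose against dTg (27.4%, median 0.15), against 272 of 1798 other protein-coding genes (15.1%, median 0.00).

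**Figure D4:**
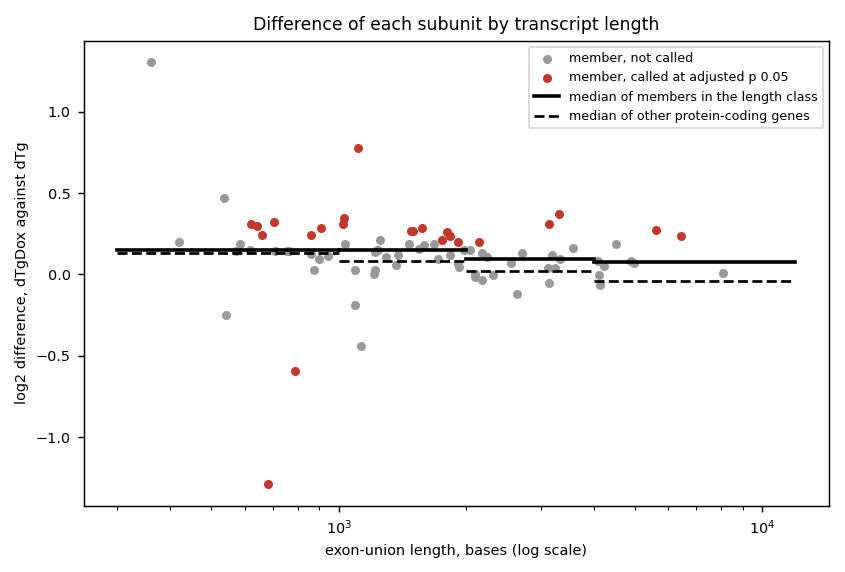
Log2 difference of dTgDox against dTg for each tested subunit gene by exon-union length in bases (log scale), with red points called and grey points not, the median of the subunit genes in each of 4 length classes as a solid line and that of other protein-coding genes as a dashed line. The solid line runs from 0.15 in the shortest class to 0.07 in the longest, and the dashed line from 0.13 to -0.04.

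The rest of the pathway was described from lists of genes. Of the 13 subunits encoded in mitochondrial DNA none passed in either comparison (median -0.03 against dTg and 0.08 against Ct), and mt-Co1, the catalytic core of complex IV, was listed at 0 in dTgDox replicate 3 and dTg replicate 2 but at 13477 FPKM or more in the other 14 libraries. Of 3 further nuclear genes outside the symbol rule, Ndufab1, the acyl carrier protein of complex I, had 239, 223 and 221 FPKM in dTgDox, 167 to 195 in dTg and 171 to 200.1 in Ct. It rose by 0.30 (SE 0.059, adjusted p 0.00242) against dTg and 0.33 (adjusted p 0.00137) against Ct, without overlap between dTgDox and the other groups. Cyc1 (cytochrome c1) and Cycs (cytochrome c) differed by 0.03 and 0.06 against dTg and did not pass.

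Assembly factors were called at or below the share of all genes. Of 15 factors of complex I, 1 rose against dTg, Ndufaf8 (39.4, 38.5 and 38.1 FPKM in dTgDox, 27.9 to 35.5 in dTg and 26.9 to 36.6 in Ct, 0.32, adjusted p 0.041), which is 6.67% of the list, with a median of 0.10. Against Ct, Ndufaf8 rose and Ndufaf1 fell (-0.40, adjusted p 0.0242). Of 35 factors of complexes II to V, 1 rose, Uqcc2, a complex III factor (178, 184 and 169 FPKM in dTgDox, 124 to 153 in dTg and 132 to 171 in Ct, 0.36, adjusted p 0.0108), which is 2.86%, with a median of 0.05, and against Ct Sdhaf4 rose as well (0.31, adjusted p 0.0269). Of the 78 mitochondrial ribosomal proteins 15 rose against dTg (19.2%, against 9.65% of all genes) and 0 fell (median 0.12). They were led by Mrpl27 (0.46, adjusted p 0.0134) and Mrpl52 (0.44, adjusted p 0.0235). Of 78 tested cytosolic ribosomal proteins 60 rose (76.9%) and 0 fell (median 0.32), among them Rpl26 (0.99). Of 17 tested proteasome core subunits 5 rose (29.4%) and 0 fell (median 0.15), led by Psmb5 (0.30) and Psmb7 (0.25). The share of the subunit genes that rose against dTg was 25.3%. Against Ct, where 9.86% of all genes rose, 11 of the 78 mitochondrial ribosomal proteins rose and 1, Mrpl3, fell (median 0.11). In that comparison 65 of the 78 cytosolic ribosomal proteins and 4 of the 17 proteasome subunits rose, and 0 fell.

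Among enzymes that feed the chain, the share that fell was above that of all genes for glycolysis and near it for the tricarboxylic acid cycle. Of 19 tricarboxylic acid cycle enzymes, Suclg1 rose and Dlst and Ogdh, both of the 2-oxoglutarate dehydrogenase complex, fell against dTg (median 0.00), by differences of 0.20, -0.21 and -0.23; the 10.5% that fell compare with 9.22% of all genes. Of 17 glycolytic enzymes 4 fell (23.5%) and 0 rose against dTg (median -0.05), and 5 fell (29.4%, against 9.85% of all genes) and 0 rose against Ct. Pfkp, the platelet-type phosphofructokinase, had 87.5, 86.4 and 74.9 FPKM in dTgDox, 120.1 to 155 in dTg and 114 to 149.5 in Ct, a difference of -0.63 (SE 0.10, adjusted p 0.000554) against dTg. Ldhb, a lactate dehydrogenase subunit, had 265, 309.7 and 258 FPKM in dTgDox, 326 to 382 in dTg and 339.9 to 423 in Ct (-0.36, adjusted p 0.00645). The dTgDox libraries lay below all others for both genes.

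Among 14 regulators of mitochondrial biogenesis, Gabpa and Tefm rose and Ppargc1b fell against dTg (median -0.06). These are 14.3% higher and 7.14% lower, where 9.65% of all genes rose and 9.22% fell. Gabpa, the DNA-binding part of GABP, had 10.97, 10.9 and 10.6 FPKM in dTgDox, 6.29 to 10.3 in dTg and 6.65 to 9.12 in Ct (0.41, adjusted p 0.0386). The subunit gene Atp5j, at a mean of 423 FPKM, shares 12.7% of its exon length with Gabpa on the opposite strand. Strand use in counting is not given, and the part of such reads in the Gabpa value was not tested. Ppargc1b, a coactivator, had 1.88, 1.37 and 2.04 FPKM in dTgDox, 2.25 to 3.25 in dTg and 1.87 to 2.94 in Ct (-0.47, adjusted p 0.03). Nrf1 and the coactivator Ppargc1a differed by -0.07 and 0.01 and did not pass.

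The comparison of dTg with Ct asks how mice with the miR-211 transgene stood beside CamK mice, both without doxycycline. No subunit gene was called, and 0% of all genes tested were called by limma. At an unadjusted p below 0.05 there were 607 of the 19064 genes and 1 of the 83 subunit genes. The median difference of the subunit genes was -0.02, with 55 lower and 28 higher, and 78 of the 83 lay within 0.1 of 0. The median SE of a subunit gene in this comparison was 0.057, which sets the size of a difference that could be seen.

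The gene below that unadjusted p was Ndufa10, an accessory subunit of complex I, which had 184 to 232 (median 208) FPKM in dTg and 218 to 245 (median 234) in Ct, a difference of -0.16 (SE 0.057, unadjusted p 0.0122, adjusted p 1.0). The ranges overlapped, and dTgDox had 219.5, 222 and 224. Next by unadjusted p were Ndufa9, with 83.3 to 93.0 (median 88.5) FPKM in dTg and 88.5 to 97.1 (median 93.0) in Ct (difference -0.08), and Atp5a1 (difference -0.07). All 7 core subunits of complex I and all 4 genes of complex II had differences below 0, of -0.10 to -0.01 and of -0.07 to -0.03.

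The cerebellum-rich library, dTg replicate 1, had another balance of subunits. Of the 83 genes, 32 (38.6%) stood above all 15 other libraries and 8 (9.64%) below, where 28.5% of all genes tested stood above and 26.3% below. The median difference from the mean of the 15 was 0.10 on the log2 scale. With 1 library there is no replicate check and no test.

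All 4 peripheral stalk genes of complex V stood above all 15 libraries (median 0.22), and so did both membrane anchors of complex II (median 0.40) and 4 of the 7 core subunits of complex I (median 0.18). Small accessory subunits of complex III were mixed (median -0.14, -0.18 to 0.23), with 2 of 5 above all 15 and 1 below. Small membrane subunits of complex V had a median of -0.08 (-0.14 to 0.16), with 0 of 4 above or below all 15. Cox7a2l lay below all 15 (94.9 FPKM, difference -0.29). Cox6b2 reached 15.7 FPKM, Cox7a1 15.6, Cox7b2 5.91 and Cox4i2 3.97, each above all 15, while Cox6a2 stood at 3.24. Choroid plexus markers in this library summed to 704 FPKM, and their part in these values was not tested.

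**Figure D5:**
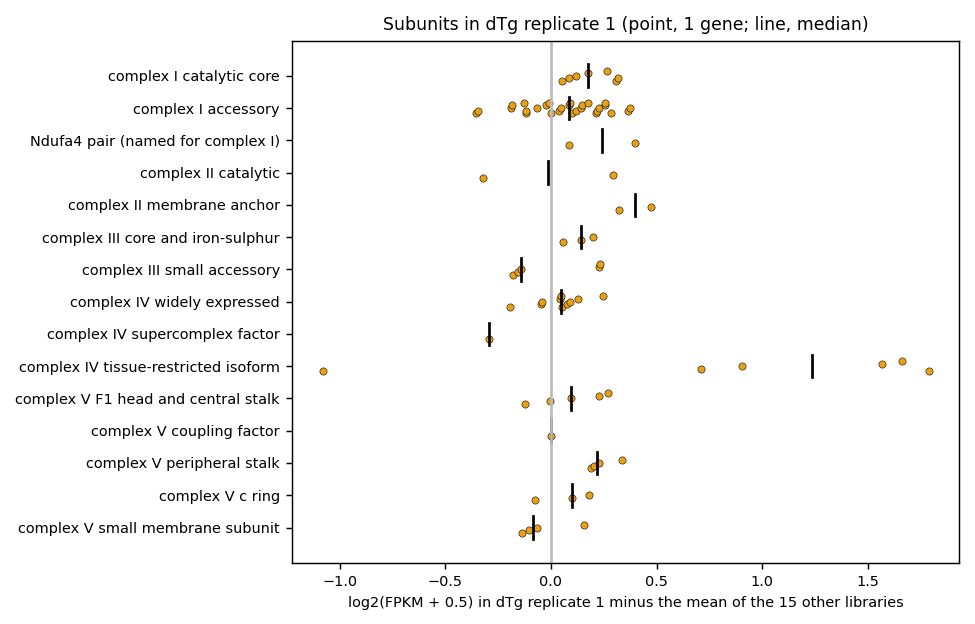
Log2(FPKM + 0.5) of each tested subunit gene in dTg replicate 1 minus its mean over the 15 other libraries, by role within the complex, 1 point per gene with the median as a line. All genes lie above 0 for the peripheral stalk, complex II anchors, complex I core, complex III core and iron-sulphur subunits and Ndufa4 pair. The single coupling factor lies at 0.0013, and the tissue-restricted complex IV forms spread from -1.08 to 1.79.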

How the data were processed

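The authors prepared poly(A) RNA libraries (NEBNext, single-end, NextSeq, RNA integrity 8 to 8.9, per the labels' protocols) and deposited 1 table of FPKM per sample, as inferred from the values. The authors used TopHat2 and DESeq, per the submitters' processing notes. Genome build, annotation, quantifier and strand setting were not given in the sources used here. The libraries ran on 2 chips that are not assigned to samples, so no batch could be fitted. Read depth is unknown, so no counting interval is given, and precision rests on the spread between libraries.

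Gene symbols, lengths and coordinates came from GENCODE M21 on GRCm38 (45139 of 46073 IDs matched and 934 did not). The fit used log2(FPKM + 0.5) over genes that reached 0.5 FPKM in 3 or more of the 15 libraries, with limma 3.58.1 in R 4.3.3 (trend and robust settings, all 3 groups sharing 1 estimate of spread), Benjamini-Hochberg adjustment over all 19064 genes and a two-sided threshold of 0.05. The fit was tested on simulated data. Tables and figures used Python 3.11.15, numpy 2.4.6, pandas 2.3.3 and matplotlib 3.10.9, and near-identical transcripts were found with BLAST 2.17.0. Of 17 files 1 pair was identical, which leaves 16 distinct libraries. There were 27 alternative fits: 12 other settings and 15 that each left out 1 library. A further fit, with dTg replicates 5 to 7 averaged, was chosen after seeing the data.

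Named genes were the 2 most abundant per complex, tissue-restricted forms, c-ring paralogs and Atpif1, the 6 largest and 6 smallest folds among called genes per comparison, the 3 smallest p in dTg against Ct, Cyc1, Cycs and Ndufab1, and the 2 largest called changes per pathway list. Other genes given with values (such as Ndufv1, Sdhd, Cox4i1, Cox5b, Cox7a2l and Atp5l) were chosen after their values were seen. The members and lists were chosen with earlier results of these data known. The values of some genes are not reported here.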

Additional observations from a re-analysis of the deposited data

Results flagged for a closer look

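In 15 of 168 sets of 6 values (1 gene in 1 group), 1 library lay far from the rest by Dixon's gap ratio at the 95% level, where chance flags about 1 in 20 sets. In Ct replicate 2, the highest of its group, Ndufa8 stood at 87.4 FPKM, Ndufb2 at 147, Ndufb8 at 255.9, Ndufc2 at 130.2 and Ndufs7 at 119, all of complex I. The same library was highest for Cox4i1 (652 FPKM), Cox7a2 (195 FPKM), Atp5d (196 FPKM) and Atp5o (229 FPKM), and lowest for Ndufs1 (64.3 FPKM). Ct replicate 3 was lowest for Ndufc1 (198 FPKM) and Ct replicate 1 for Cox7b (457 FPKM). In dTg, replicate 4 was highest for Cox8a (755 FPKM). Ct replicate 6 was highest for Cox8b (1.15 FPKM) and Cox8c (0.114 FPKM). Outside the comparisons, dTg replicate 1 had 15.7 FPKM of Cox6b2 and 15.6 FPKM of Cox7a1, each more than 2 times the highest Ct library.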

How the results depend on the processing

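Among the subunit genes named by rule, with Atpif1, Cyc1, Cycs and Ndufab1, no called result changed direction under the 27 alternatives or the 1 added. The direction of other called genes was not checked in this way. With dTg replicate 1 included, 1537 genes changed against dTg (3596 in the reported fit) and 1504 against Ct (3758), 12 and 9 subunit genes rose, and 1 fell in each comparison. Subunit genes that fell against Ct, 3 as reported, numbered 1 without a filter on low values, with upper-quartile scaling, and in 13 libraries without Ct replicate 2 and dTg replicate 7. With the length trend removed the median against Ct was 0.076. With a pseudocount of 0.1, 1 gene changed between dTg and Ct. With dTg replicates 5 to 7 averaged, an alternative chosen after seeing the data, 1 gene changed between dTg and Ct, 2851 changed against dTg and 3927 against Ct. The causes of the other shifts were not tested, but leaving out a library reduces the samples. With 1 library left out in turn, 2077 to 3715 genes changed against dTg, 2229 to 3872 against Ct and 0 to 1 between dTg and Ct. In the same fits 5 to 23 subunit genes rose and 1 to 3 fell against dTg, and 6 to 26 rose and 1 to 4 fell against Ct, with medians of 0.12 to 0.16 and 0.11 to 0.16. The median between dTg and Ct, where no subunit gene was called, was -0.030 to 0.0075. Among single-gene results, 2772 kept a call with its direction, or stayed uncalled within the SE of the reported difference, whatever their sign. Of the others, 181 lost a call, 13 gained one and 25 without a call moved by that SE or more. Depth is unknown, and the lowest genes, such as Cox8b and Cox7b2, are limited most.

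The replicate numbers do not pair the samples: over 10 same-numbered pairs the correlation of deviations from group means was -0.19 to 0.080, with 0 above 0.1. With a replicate block, 1562 genes changed against dTg and 2394 against Ct. Under the block 5 subunit genes rose (6.02%, against 4.12% of all genes) and 0 fell against dTg, and 9 rose (10.8%, against 6.43%) and 1 fell against Ct, so the excess over all genes was smaller than in the reported fit.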
